A study of Homo sapiens with 9 samples.

Results

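The accessible sites of chromosome 2 are the ATAC-seq peaks that 4 deposited peak lists place on that chromosome. The control list held 2815 of them among 39194 peaks, and the lists of the IGF2BP1, IGF2BP2 and IGF2BP3 knockouts 3889 of 50917, 4702 of 60262 and 2462 of 44041. Peaks of different lists that shared at least 1 bp were merged into 1 site, which gave 5354 sites on chromosome 2 among 71597 in the genome. The chromosome was picked because its share of peaks was low in the IGF2BP3 knockout list, so that low share, and the sites this list lacks, are described here and not tested.

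ATAC-seq was done on HEK293T, an established human embryonic kidney line, with no treatment besides the gene editing. The control cells received a guide RNA that targets no mammalian gene. The other groups were knockouts of IGF2BP1, IGF2BP2 or IGF2BP3 (also called IMP1, IMP2 and IMP3), made by transient transfection of non-integrating plasmids that carried 3 guides and GFP, followed by sorting of single cells. Each knockout was 1 clone, so the effect of a clone and that of its genotype cannot be told apart. The control had 2 libraries (batches 2 and 3), the IGF2BP1 knockout 3 (batches 1, 2 and 3), and the IGF2BP2 and IGF2BP3 knockouts 2 each (batches 2 and 3), but every group was deposited as 1 list with no value per library. There was therefore no spread between replicates to set a difference against, no test was made, and the 95% intervals given (Wilson for shares) cover counting error alone. The number of reads behind each list is unknown. In bulk cells, a site open in fewer cells and a site less open in each cell cannot be told apart. The lists hold no measure of DNA copy number in each clone, and its part in the counts was not tested. None of the 3 edited genes lies on chromosome 2, and a peak list does not show whether a gene was disrupted.

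In ATAC-seq a transposase cuts DNA that is not covered by nucleosomes, so a peak marks a promoter, an enhancer or another open element. Promoters rich in CpG are open in most cell types, whereas open sites far from promoters differ more between cell types. The IGF2BP proteins bind RNA, mainly in the cytoplasm, and are known for stabilizing messenger RNAs. Human chromosome 2 arose by fusion of a pair of ancestral ape chromosomes, and it carries the HOXD cluster and several very long neuronal genes.

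The following promoter sequences are shown as examples of the few promoters in lacking sites, beside 1 promoter that was kept; most lacking sites lay away from promoters. The first 5 lay in sites held by the control, IGF2BP1 knockout and IGF2BP2 knockout lists and lacking in the IGF2BP3 knockout list, and the sixth, of NCL, was held by all 4 lists. Each runs from 250 bases before to 50 after a RefSeq start (GRCh38.p14), 5′ to 3′ on the strand of the gene, with CpG dinucleotides in capitals. SLC4A10 (chr2:161624166-161624465, plus strand) encodes a sodium bicarbonate transporter of neurons, LDAH (chr2:20823052-20823351, minus strand) a hydrolase of lipid droplets, and KLHL41 (chr2:169509452-169509751, plus strand) a kelch protein of skeletal muscle. TWIST2 (chr2:238847835-238848134, plus strand) and NEUROD1 (chr2:181680468-181680767, minus strand) encode basic helix-loop-helix transcription factors of mesenchyme and of neurons and pancreas. NCL (chr2:231464435-231464734, minus strand) encodes nucleolin, an abundant nucleolar protein.
SLC4A10: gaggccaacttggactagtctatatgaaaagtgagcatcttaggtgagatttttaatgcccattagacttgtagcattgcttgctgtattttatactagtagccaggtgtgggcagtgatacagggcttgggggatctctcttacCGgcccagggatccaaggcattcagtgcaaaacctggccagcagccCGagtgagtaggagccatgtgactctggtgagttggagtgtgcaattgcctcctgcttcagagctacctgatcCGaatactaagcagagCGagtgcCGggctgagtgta
LDAH: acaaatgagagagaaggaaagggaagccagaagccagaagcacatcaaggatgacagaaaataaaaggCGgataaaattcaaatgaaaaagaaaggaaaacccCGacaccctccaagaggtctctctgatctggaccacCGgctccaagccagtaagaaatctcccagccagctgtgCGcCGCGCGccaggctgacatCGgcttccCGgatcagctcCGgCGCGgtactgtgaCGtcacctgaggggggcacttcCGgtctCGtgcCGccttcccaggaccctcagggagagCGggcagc
KLHL41: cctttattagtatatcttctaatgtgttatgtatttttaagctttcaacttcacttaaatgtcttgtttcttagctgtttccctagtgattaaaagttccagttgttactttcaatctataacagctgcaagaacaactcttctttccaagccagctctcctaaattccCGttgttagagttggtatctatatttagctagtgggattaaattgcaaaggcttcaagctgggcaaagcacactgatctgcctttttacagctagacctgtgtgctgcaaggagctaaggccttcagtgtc
TWIST2: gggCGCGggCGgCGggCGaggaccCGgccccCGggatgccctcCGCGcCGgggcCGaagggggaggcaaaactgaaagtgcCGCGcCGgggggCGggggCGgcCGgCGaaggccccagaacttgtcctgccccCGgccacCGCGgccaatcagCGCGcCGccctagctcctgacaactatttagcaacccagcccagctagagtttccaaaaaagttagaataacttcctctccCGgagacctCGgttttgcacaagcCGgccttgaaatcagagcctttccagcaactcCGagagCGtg
NEUROD1: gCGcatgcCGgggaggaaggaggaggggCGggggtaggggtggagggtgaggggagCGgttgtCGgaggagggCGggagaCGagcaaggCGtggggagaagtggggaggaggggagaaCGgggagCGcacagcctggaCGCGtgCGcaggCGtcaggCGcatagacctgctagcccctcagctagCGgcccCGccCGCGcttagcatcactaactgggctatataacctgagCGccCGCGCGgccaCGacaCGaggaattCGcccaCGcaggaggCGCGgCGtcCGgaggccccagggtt
NCL: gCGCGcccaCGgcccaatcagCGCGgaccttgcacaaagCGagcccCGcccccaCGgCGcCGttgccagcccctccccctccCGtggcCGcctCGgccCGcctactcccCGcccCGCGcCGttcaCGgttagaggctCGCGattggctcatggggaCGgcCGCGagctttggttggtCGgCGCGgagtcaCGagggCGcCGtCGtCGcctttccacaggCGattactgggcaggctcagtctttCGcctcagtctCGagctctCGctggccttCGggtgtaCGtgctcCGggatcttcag

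These sequences differed widely in CpG content. The KLHL41 promoter held 1 CpG and 38.3% G and C, and the SLC4A10 promoter 5 CpG and 50.3%. LDAH had 17 CpG, TWIST2 29, NEUROD1 31 and NCL 39. The lacking promoters shown thus include CpG-poor and CpG-rich ones.

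Chromosome 2 took a smaller share of the IGF2BP3 knockout list than of the other lists. It held 7.18% of the control peaks (6.93 to 7.44), 7.64% of the IGF2BP1 knockout peaks (7.41 to 7.87), 7.80% of the IGF2BP2 knockout peaks (7.59 to 8.02) and 5.59% of the IGF2BP3 knockout peaks (5.38 to 5.81). Relative to control the share was 0.778 in the IGF2BP3 knockout list (0.739 to 0.820), 1.06 in the IGF2BP1 knockout list (1.02 to 1.11) and 1.09 in the IGF2BP2 knockout list (1.04 to 1.14). The IGF2BP3 knockout list was longer than the control list, yet held fewer peaks on chromosome 2, and the chromosome had rank 4 there by number of peaks against rank 2 in the other 3 lists. The bases covered were 2.39 Mb in control, 3.56 Mb in IGF2BP1 knockout, 3.47 Mb in IGF2BP2 knockout and 2.04 Mb in IGF2BP3 knockout. Batch 1 entered the IGF2BP1 knockout list alone, and its part in these values was not tested.

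Peaks at gene ends, meaning within 1 kb of either end of a gene, were kept more fully than the rest. Chromosome 2 held 1065 such peaks in control, 1176 in IGF2BP1 knockout, 1241 in IGF2BP2 knockout and 1031 in IGF2BP3 knockout. Their share was taken over the gene-end peaks of the whole list, 15748 in control and 16250 in IGF2BP3 knockout. By that measure the IGF2BP3 knockout stood at 0.938 of control (0.864 to 1.02), an interval that includes 1. Away from gene ends the lists held 1750, 2713, 3461 and 1431 peaks in the same order. Over all such peaks of a list, the IGF2BP3 knockout share was 0.690 of control (0.645 to 0.738).

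The deficit was present on both arms, divided here at 93 Mb within a stretch of 2.17 Mb that held no peak in any list. On 2p the control list held 1071 peaks, the IGF2BP1 knockout list 1381, the IGF2BP2 knockout list 1646 and the IGF2BP3 knockout list 1025. On 2q the numbers were 1744, 2508, 3056 and 1437. The IGF2BP3 knockout share relative to control was 0.852 on 2p (0.783 to 0.927) and 0.733 on 2q (0.685 to 0.785). Relative to control, the IGF2BP1 knockout stood at 0.993 on 2p and 1.11 on 2q, and the IGF2BP2 knockout at 1.00 on 2p and 1.14 on 2q.

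In 5 Mb windows the lower share ran along most of the chromosome. Of 49 windows, all with a mean of at least 20 peaks, 47 had an IGF2BP3 knockout share below that of control. Windows below control were not counted over the genome. A share under 0.8 of control was found in 32, against 12.5% of the 575 windows of the genome, chromosome 2 included. These 32 were 9 of the 19 windows of 2p and 23 of the 30 of 2q. The highest IGF2BP3 knockout ratio was 1.06, and no window fell under 0.8 in the IGF2BP1 knockout list (6.43% in the genome) or the IGF2BP2 knockout list (12.5%). Since the chromosome was chosen on this contrast, the excess over the genome is a description.

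**Figure D1:**
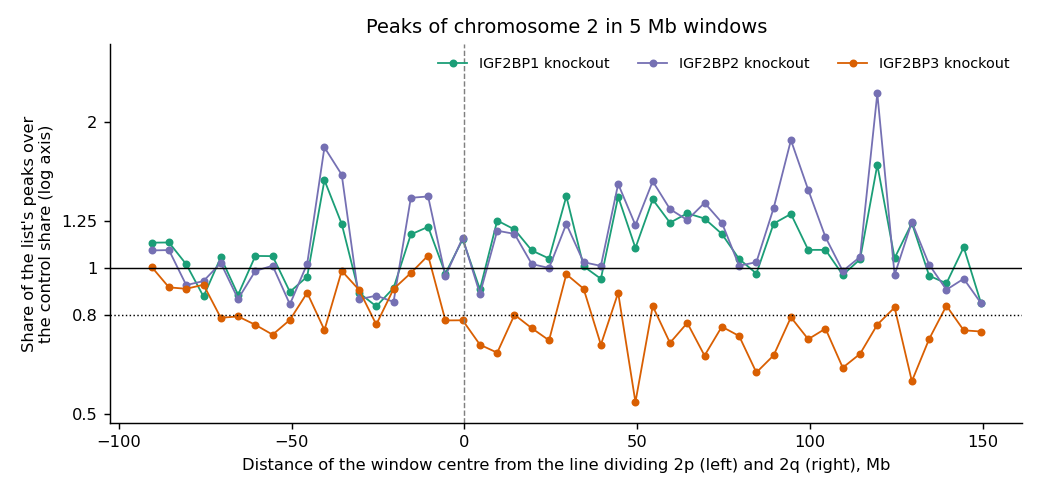
Share of each knockout list's peaks in 49 windows of 5 Mb along chromosome 2, divided by the control share with a pseudocount of 0.5 (y, log axis), against the distance of the window centre from the line dividing the arms (x, Mb). The dotted line is at 0.8. The IGF2BP3 knockout values lie between 0.530 and 1.06, and those of the other knockouts do not go under 0.8.

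The lowest IGF2BP3 knockout ratio was 0.530, in the window from 140 to 145 Mb, which held 39 control peaks, 56 IGF2BP1 knockout peaks, 74 IGF2BP2 knockout peaks and 23 IGF2BP3 knockout peaks. LRP1B, a very long gene for a receptor of the low-density lipoprotein receptor family, lies in it. The next lowest were 0.585 from 220 to 225 Mb, 0.610 from 175 to 180 Mb, 0.624 from 200 to 205 Mb and 0.660 from 160 to 165 Mb, all on 2q. The highest were 1.06 from 80 to 85 Mb, 1.01 from 0 to 5 Mb and 0.988 from 55 to 60 Mb, all on 2p. The window with the highest ratio held 15 control and 18 IGF2BP3 knockout peaks, so its value rests on few peaks. The first 4 windows of 2p lay between 0.907 and 1.01.

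Other chromosomes stood low in other lists or in the same one. Chromosome 16 had 11 of 15 windows under 0.8 in the IGF2BP3 knockout list, chromosome 11 had 20 of 26 in the IGF2BP2 knockout list, and chromosome 17 had 12 of 17 in the IGF2BP1 knockout list. A chromosome with most windows low in 1 knockout list was thus not limited to chromosome 2 or to the IGF2BP3 knockout.

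Peak widths on chromosome 2 differed less between control and IGF2BP3 knockout than the counts did. The median width was 755 bp in control, 816 bp in IGF2BP1 knockout, 647 bp in IGF2BP2 knockout and 734.5 bp in IGF2BP3 knockout. On the other chromosomes the medians were 772, 835, 651 and 712 bp. The IGF2BP3 knockout median was therefore 0.973 of control on chromosome 2 (0.944 to 1.00 over peaks, with the control median taken as fixed), and 1.06 of it with the widest peaks of each list, as many as the shortest list holds. The IGF2BP2 knockout median was 0.857 of control, and 1.08 with the widest peaks, so neither direction held under that choice. On 2p the control and IGF2BP3 knockout medians were 773 and 724 bp, and on 2q 749 and 740 bp.

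The sites held by all 4 lists allow a comparison at the same place. At these 1940 sites the median width was 895 bp in control, 1014.5 bp in IGF2BP1 knockout, 895 bp in IGF2BP2 knockout and 829 bp in IGF2BP3 knockout. The median change from control to IGF2BP3 knockout was -0.08 on the log2 scale, with the peak narrower at 62.8% of the sites. On the other chromosomes the median change was -0.03 and 55.3% were narrower. The medians were -0.07 on 2p and -0.09 on 2q, and chromosome 2 ranked the third lowest of 23 chromosomes, after chromosomes 16 and 19. Ranked by the smallest of their 4 widths, the widest sites held by all 4 lists were at MEIS1 (at and just beyond the gene), PRKCE, GAD1 and CXCR4. MEIS1, a homeobox factor, had 2450 bp in control, 2612 bp in IGF2BP1 knockout, 2559 bp in IGF2BP2 knockout and 2540 bp in IGF2BP3 knockout.

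The IGF2BP3 knockout list alone lacked 504 of the 2444 chromosome 2 sites that the other 3 lists held. That is 20.6% (19.1 to 22.3), beside 11.1% over all chromosomes, and nothing is read from this excess because the rule used the contrast. By the same count the IGF2BP2 knockout list lacked 20 sites (1.02%, beside 2.12% over all chromosomes) and the IGF2BP1 knockout list 34 (1.72%, beside 3.15%). The control list lacked 220 sites (10.2%, beside 14.2% over all chromosomes) that the 3 knockout lists held. With the widest peaks of each list, as many as the shortest list holds, the IGF2BP3 knockout list lacked 320 of 1931 sites (16.6%). The share lacking in the IGF2BP3 knockout list was the highest of 23 chromosomes, followed by chromosome 16 with 16.2% and chromosome 7 with 13.2%, and the lowest was 3.76% on chromosome 17.

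**Figure D2:**
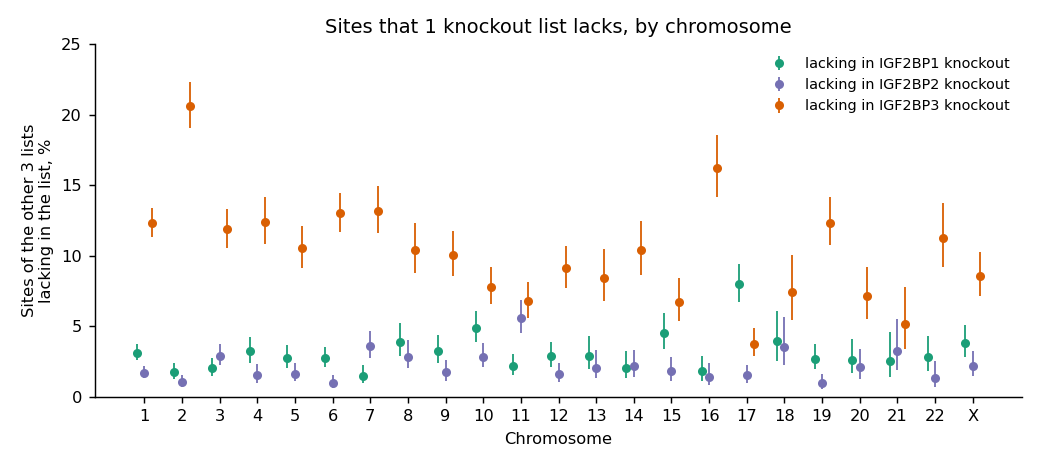
Percent of the sites held by the other 3 lists that each knockout list lacked (y), by chromosome (x); points are the percent and bars the 95% Wilson interval. In the IGF2BP3 knockout list chromosome 2 stands at 20.6% and chromosome 16 at 16.2%, while chromosome 2 is at 1.02% and 1.72% in the IGF2BP2 and IGF2BP1 knockout lists.

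On 2p the IGF2BP3 knockout list lacked 153 of 938 sites (16.3%, 14.1 to 18.8), and on 2q 351 of 1506 (23.3%, 21.2 to 25.5). Chromosome 2 thus held 13.7% of all sites of this class in the genome. The opposite class, sites found in the IGF2BP3 knockout list alone, numbered 88 on chromosome 2, which was 2.51% of 3506 in the genome.

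Few lacking sites lay within 1 kb of a peak of the IGF2BP3 knockout list. Of the 504 sites, 490 lay over 1 kb from the nearest such peak, 171 over 50 kb and 76 over 100 kb. The median distance was 32.7 kb. These distances depend on the spacing of the 2462 peaks of that list on the chromosome. They were not compared with those of other sites, so they are not read as a trait of the lacking ones. At the border of the rule, the nearest lacking sites were 358 bp from an IGF2BP3 knockout peak (in DIS3L2), 417 bp (in SLC16A14) and 551 bp (0.709 kb from CASP8). Just across the border, the smallest overlaps that counted as shared were 244 bp in COLEC11, 245 bp in ASXL2 and 253 bp in SLC4A5.

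Lacking sites were narrower than those kept. Their median width was 565.5 bp in control, 725 bp in IGF2BP1 knockout and 597 bp in IGF2BP2 knockout, against 895, 1014.5 and 895 bp at sites held by all 4 lists. The same held for control peaks when split by the quartiles of width over the genome. Among the narrowest control peaks, up to 557 bp, the IGF2BP3 knockout list had no overlapping peak for 56.2% on 2p, 61.9% on 2q and 42.1% elsewhere. For peaks of 558 to 771 bp these were 23.4, 37.3 and 19.3%, and for 772 to 1078 bp 12.6, 15.9 and 7.36%. Among the widest, from 1079 bp, they were 3.36, 5.81 and 2.32%. The percentages fell with width on both arms and elsewhere, and since the chromosome was chosen on this list no difference between them is tested. In the IGF2BP1 and IGF2BP2 knockout lists both arms were at or under 23.4% in the narrowest quartile, where the other chromosomes had 27.1% and 21.6%. The median span of the sites lacking in the IGF2BP3 knockout list alone was 787.5 bp, against 1103 bp at sites held by all 4 lists. It was 721 bp at sites lacking in the IGF2BP1 knockout list alone, 802.5 bp for the IGF2BP2 knockout list and 839 bp for control.

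**Figure D3:**
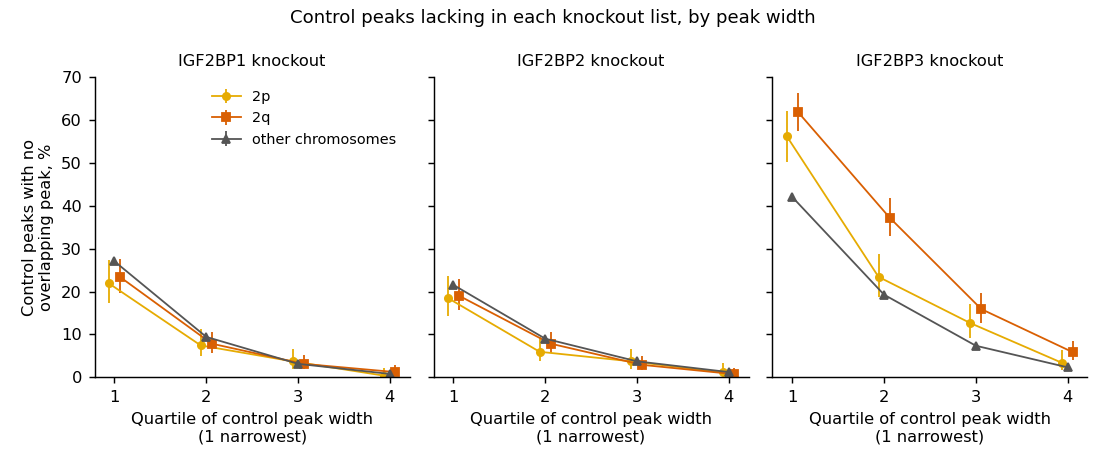
Percent of control peaks without an overlapping peak in each knockout list (y), by quartile of control peak width over the genome (x, 1 is the narrowest), for 2p, 2q and the other chromosomes; bars are 95% Wilson intervals. In the IGF2BP3 knockout the 2q points run from 61.9 to 5.81% and those of the other chromosomes from 42.1 to 2.32%.

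Lacking sites also differed from the kept ones in position. Of the sites of the other 3 lists at gene ends, the IGF2BP3 knockout list lacked 57 of 1019 (5.59%, 4.34 to 7.18), against 3.11% on the other chromosomes. Inside protein-coding genes but not at an end it lacked 238 of 673 (35.4%, 31.8 to 39.0), and outside them 209 of 752 (27.8%, 24.7 to 31.1). On the other chromosomes 16.2% of the sites away from gene ends were lacking. On each arm the sites inside genes were lacking most often, with 30.6% on 2p and 37.9% on 2q. Of the lacking sites 17 of 504 (3.37%) overlapped a RefSeq promoter, against 780 of 1940 (40.2%) of the sites held by all 4 lists.

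**Figure D4:**
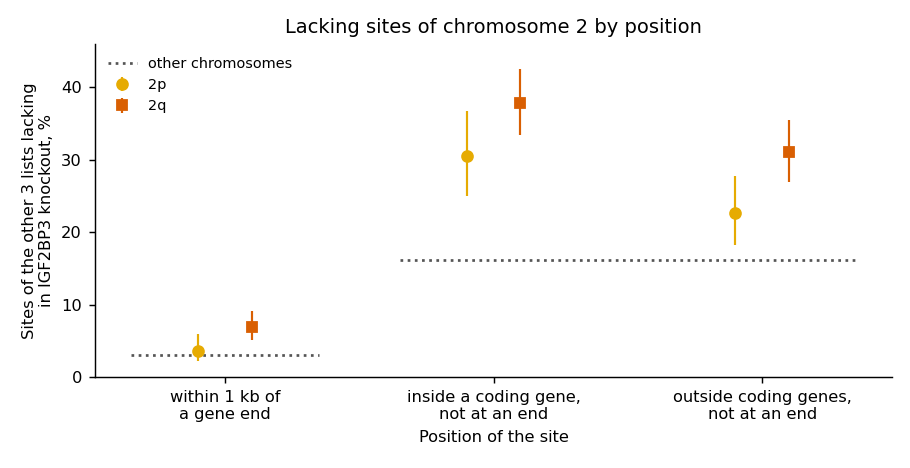
Percent of the sites held by the other 3 lists that the IGF2BP3 knockout list lacked (y), by position of the site (x), for 2p and 2q with 95% Wilson intervals; dotted lines are the other chromosomes, where sites away from gene ends are 1 class. The values are 3.65 and 6.91% at gene ends and 30.6 and 37.9% inside coding genes.

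Ranked by the smallest of their 3 peak widths, the first lacking site was at NCL. By span, sites at chr2:183997004-183999302 (2299 bp) and chr2:58521418-58523599 (2182 bp) exceeded it, but their control peaks were 752 and 249 bp. It spanned chr2:231451893-231454041, with peaks of 1951 bp in control, 1716 bp in IGF2BP1 knockout and 2149 bp in IGF2BP2 knockout, and the nearest IGF2BP3 knockout peak was 9.87 kb away. It covers the lower-coordinate end of NCL, the 3′ end of this minus-strand gene. At the promoter printed above, the peaks were 1624, 1748, 1430 and 1388 bp wide in control, IGF2BP1, IGF2BP2 and IGF2BP3 knockout. The list thus kept the promoter of NCL and lacked the site at its other end.

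The second by this ranking lay in the long non-coding gene LINC01876 at chr2:156124002-156125681, 199.0 kb from NR4A2, a nuclear receptor gene. Its peaks were 1371 bp in control, 1678 bp in IGF2BP1 knockout and 1383 bp in IGF2BP2 knockout. The third, at chr2:117086945-117088461, lay in no gene and 535.0 kb from the nearest IGF2BP3 knockout peak. Its peaks were 1506, 1327 and 1503 bp wide in the same order.

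Of the first 20 lacking sites by this ranking that lay over 1 kb from an IGF2BP3 knockout peak, 17 were on 2q. On 2p they were in RNF144A, which encodes a ubiquitin ligase, ATP6V1C2, a subunit of the vacuolar proton pump, and ATAD2B, a bromodomain protein. On 2q they also lay in CRYGB, a lens crystallin gene, PARD3B, a cell polarity gene, FAM240C, IKZF2, a zinc finger factor of lymphocytes, CYP27A1, a sterol hydroxylase gene, and PDE1A, a phosphodiesterase gene. The others had CWC22, FTCDNL1, EPHA4, NMI, MMADHC, GYPC, SLC38A11 or MRPS9 as the nearest coding gene. The smallest of the 3 widths was at least 964 bp at each, and 18 lacking sites in all reached 1000 bp.

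**Figure D5:**
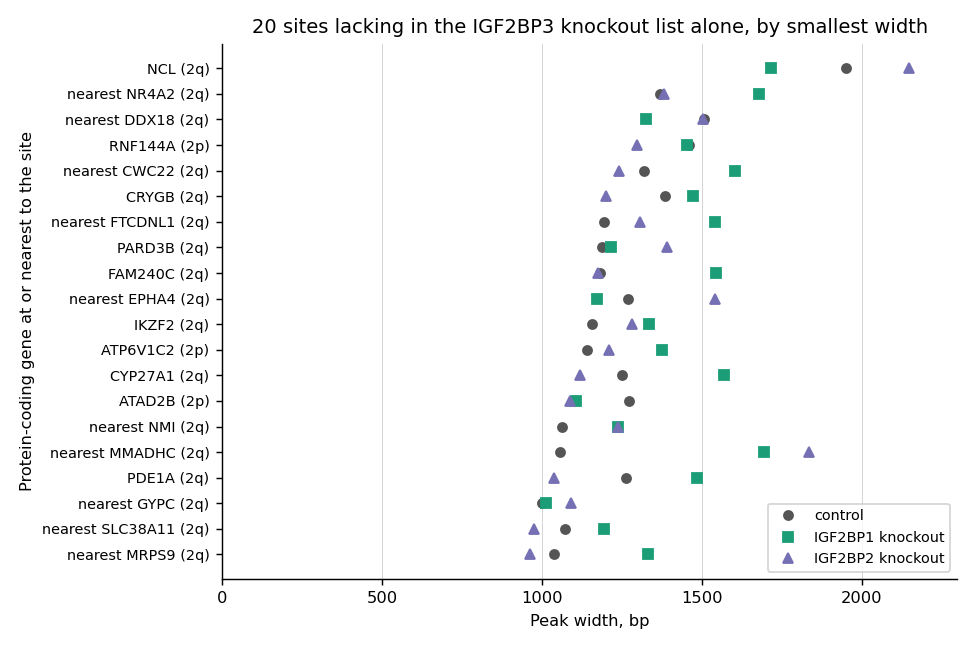
Width of the peak in control, IGF2BP1 knockout and IGF2BP2 knockout (x, bp) at 20 sites lacking in the IGF2BP3 knockout list alone, those with the largest smallest width over the 3 lists, with the gene at or nearest to each site (y). The site at NCL is at 1716 to 2149 bp, and the last, near MRPS9, at 964 to 1332 bp.

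Lacking sites were spread over many genes. Of the 504 sites 264 lay in a protein-coding gene, and 214 coding genes held at least 1, of which 14 held 3 or more. FMNL2, which encodes a formin that builds actin filaments, held 5 lacking sites, with 7 peaks in control, 8 in IGF2BP1 knockout, 8 in IGF2BP2 knockout and 2 in IGF2BP3 knockout. RANBP2 also held 5, but the RefSeq table gives it a span of 1123 kb with 48 sites, 16 of them held by all 4 lists. That span may be too long and includes EDAR and SH3RF3, which hold 2 of these lacking sites each. The 5 sites are therefore not particular to RANBP2. CRIM1 and LRP1B held 4 each, LRP1B with 12, 16, 17 and 6 peaks in control, IGF2BP1, IGF2BP2 and IGF2BP3 knockout. Several genes tied at 3, among them ERBB4, a receptor tyrosine kinase gene, HDAC4, a histone deacetylase gene, and PARD3B.

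Most lacking sites stood alone in the order of sites held by the other 3 lists. There were 292 single ones, 74 runs of 2, 13 of 3, 1 of 4, 3 of 5 and 1 of 6. The run of 6, over chr2:210577428-212384560 at CPS1 and ERBB4, held 8 control peaks, 20 IGF2BP1 knockout peaks, 38 IGF2BP2 knockout peaks and 2 IGF2BP3 knockout peaks. The stretch without any IGF2BP3 knockout peak that held most control peaks ran over chr2:102827389-104434356, 1607 kb that hold the coding gene TMEM182. It held 7 control peaks, 13 IGF2BP1 knockout peaks and 22 IGF2BP2 knockout peaks.

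At the level of genes the lists were close. Of 1254 protein-coding genes of chromosome 2, 900 had a gene-end peak in control, 935 in IGF2BP1 knockout, 936 in IGF2BP2 knockout and 890 in IGF2BP3 knockout, and 868 had one in all 4. The IGF2BP3 knockout list alone lacked it for 18 of 886 genes (2.03%, 1.29 to 3.19), beside 1.46% over all chromosomes. The IGF2BP2 knockout list lacked it for 5 genes (0.573%, beside 1.09% over all chromosomes) and the IGF2BP1 knockout list for 2 (0.230%, beside 0.392%).

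For 14 of the 18 genes the peaks of the other lists lay in sites wholly lacking in the IGF2BP3 knockout list. The peaks of SLC4A10 were 974 bp in control, 1157 bp in IGF2BP1 knockout and 933 bp in IGF2BP2 knockout, over the promoter printed above, and the nearest IGF2BP3 knockout peak was 208.8 kb from its start. LDAH had 724, 878 and 647 bp in the same order, with 139.8 kb to the nearest peak. KLHL41 had 755, 695 and 607 bp, with 29.7 kb. All 3 starts were therefore at least 29.7 kb from a peak of that list. NEUROD1 had narrow peaks of 544, 478 and 287 bp, and an IGF2BP3 knockout peak lay 2.84 kb from its start. DGKD, a diacylglycerol kinase gene, and RNPEPL1, an aminopeptidase-like gene, also had the peaks over a promoter in the 3 lists. The nearest IGF2BP3 knockout peak was 102.4 kb from a start of DGKD and 1.64 kb from that of RNPEPL1.

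The other genes with a wholly lacking site were CRYGB, B3GNT7, a glycosyltransferase gene, CSRNP3, ANKRD30BL, TEKT4, a tektin of cilia and flagella, IGFBP5, a binding protein of insulin-like growth factors, NMS, which encodes neuromedin S, and LOC124905938. An IGF2BP3 knockout peak lay 1.48 kb from the start of CSRNP3, 1.98 kb from IGFBP5, 2.56 kb from TEKT4 and 2.99 kb from LOC124905938. For CRYGB, B3GNT7, ANKRD30BL and NMS the nearest was at least 16.2 kb from a start. The peaks of the other lists overlapped no promoter of these genes, and at CRYGB, B3GNT7 and ANKRD30BL they lay at the 3′ end. At RAMP1, a receptor-modifying protein gene, 3 of 5 peaks were in a lacking site. For GYPC, NOTO and SP9 no peak was. The peaks of GYPC, a red cell membrane protein gene, were in a site that all 4 lists hold, and its IGF2BP3 knockout peak lay 1.04 kb from the start, just beyond the limit of 1 kb. The SP9 peaks of control and IGF2BP1 knockout were at opposite ends of the gene.

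A count by promoters gave a similar picture. Of 2764 RefSeq promoters of chromosome 2, 1217 overlapped peaks of all 4 lists, 27 (20 of coding genes) overlapped peaks of all but the IGF2BP3 knockout list, and 1356 overlapped none. For 16 of the 27 the whole site was lacking, and for 11 the IGF2BP3 knockout list held the site with a peak that did not reach the promoter window. The 11 included ACVR1 and ACVR2A, which encode receptors of the transforming growth factor family, MAP3K2 and IKZF2. At MAP3K2 the IGF2BP3 knockout peak was 0.009 kb from the window. The wholly lacking ones included 1 of the promoters of BCL11A, a repressor of fetal globin, and that of TWIST2, with peaks of 961 bp in control, 1988 bp in IGF2BP1 knockout and 707 bp in IGF2BP2 knockout.

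The promoters lacking in the IGF2BP3 knockout list were intermediate in base composition. Their median G and C content was 55.3%, against 67.7% where all 4 lists held a peak and 47.0% where none did. The median ratio of observed to expected CpG was 0.445, against 0.860 and 0.219. The letters GGGCGG on either strand, the GC box, were in 37.0% of them, in 73.4% of those held by all 4 lists and in 42.5% of all promoters of chromosome 2. In the same order, CCAAT was in 18.5, 32.9 and 34.1%, TATAAA in 11.1, 3.78 and 11.9%, and CANNTG, the E box, in 66.7, 56.7 and 68.7%. Both strands were searched. Among the printed sequences GGGCGG was found in TWIST2, NEUROD1 and NCL, and TATAAA in SLC4A10. With 27 promoters these percentages rest on few sequences.

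Lists of chromosome 2 genes, 4 in all and chosen from general knowledge, were described by their gene-end peaks. Of 50 developmental transcription factors, 36 had a peak in control, IGF2BP1 knockout and IGF2BP2 knockout each and 34 in IGF2BP3 knockout. The IGF2BP3 knockout list alone lacked SP9 and NEUROD1, while 33 had a peak in all 4 lists. For SP9 no peak lay in a lacking site. Of coding genes with such a peak in the other 3 lists, 2.03% lacked it on chromosome 2 and 1.46% over all chromosomes. Nothing is read from 2 genes. OSR1 had a peak in the IGF2BP3 knockout list alone (681 bp), SP5 in the IGF2BP1 knockout list alone (1225 bp), and ZEB2 in control (850 bp) and IGF2BP2 knockout (231 bp). The kidney progenitor factor SIX2 had 1546, 1601, 1535 and 1488 bp in control, IGF2BP1, IGF2BP2 and IGF2BP3 knockout. PAX8, another factor of kidney development, was among 12 genes with no gene-end peak in any list. Within PAX8 the lists held 1, 4, 4 and 0 peaks in the same order. MYCN and ID2 had a gene-end peak in all 4.

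Of 52 innate immune and cell death genes, 23 had a gene-end peak in control and 23 in IGF2BP3 knockout. The IGF2BP1 knockout list had 24 and the IGF2BP2 knockout list 26. In all 4 lists 22 genes had one, and none was lacking in the IGF2BP3 knockout list alone. With 2.03% lacking over the coding genes of the chromosome, none among so few is not read as a result. EIF2AK2, the sensor kinase of double-stranded RNA, had 1394, 1544, 1454 and 1240 bp in control, IGF2BP1, IGF2BP2 and IGF2BP3 knockout, and IFIH1, another sensor of double-stranded RNA, 855, 1327, 944 and 966 bp. DUSP2, a phosphatase gene, lacked a peak in control alone. CASP10 had one in control and IGF2BP2 knockout, TANK in IGF2BP1 and IGF2BP2 knockout, and CCL20 in IGF2BP2 knockout.

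Another list held 52 genes for ion channels, receptors, adhesion and matrix proteins and other mostly long genes, with lengths from 5.67 to 1900.0 kb. Of these, 30 had a gene-end peak in control, 34 in IGF2BP1 knockout, 32 in IGF2BP2 knockout and 30 in IGF2BP3 knockout. In all 4 lists 28 genes had one. Again none was lacking in the IGF2BP3 knockout list alone, which is likewise not read as a result. Inside the 52 genes, gene ends included, the IGF2BP3 knockout list lacked 38 of 117 sites of the other 3 lists (32.5%, 24.7 to 41.4). Over the whole chromosome 20.6% of such sites were lacking. Inside any coding gene of the chromosome the share was 35.4%, but that value leaves out gene ends and is no like comparison. The sodium channel genes SCN1A and SCN3A, the potassium channel gene KCNH7 and the transcription factor gene MYT1L had a gene-end peak in the IGF2BP1 knockout list but not in control or IGF2BP3 knockout, and SCN3A and KCNH7 also in the IGF2BP2 knockout list. LRRTM4 had one in IGF2BP2 and IGF2BP3 knockout, COL6A3 in IGF2BP2 knockout, INHBB in control and IGF2BP1 knockout, and GPC1 in all but IGF2BP2 knockout.

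Of 48 ribosome, splicing and housekeeping genes, 47 had a gene-end peak in every list. SF3B1, a core splicing factor gene, had 976, 988, 850 and 838 bp in control, IGF2BP1, IGF2BP2 and IGF2BP3 knockout, and EIF5B, a translation initiation factor gene, 1710, 1961, 1882 and 1896 bp. Of the sites of the other 3 lists, the IGF2BP3 knockout list lacked 20.6% on the whole chromosome and 5.59% at its gene ends. It lacked 4 of 60 in these housekeeping genes (6.67%, 2.62 to 15.9), 9 of 64 in the transcription factors (14.1%, 7.58 to 24.6) and 8 of 40 in the immune genes (20.0%, 10.5 to 34.8). The median gene length was 206.1 kb in the list of mostly long genes, against 34.9 kb in the housekeeping genes, 44.0 kb in the immune genes and 10.4 kb in the transcription factors, and the part of length in these percentages was not tested.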

How the data were processed

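ATAC-seq peaks of 9 HEK293T libraries were deposited as 4 lists, 1 per group, with 3 columns (chromosome, start and end); these positions, deposited by the authors, are the only values, with no count, score or p-value. Per the submitters' processing notes, fastp 0.24.1, BWA 0.7.17, MACS2 3.0.0, bedtools and GRCh38 were used, with no role given; how peaks were thresholded, whether reads were shifted for the transposase and how libraries were pooled are not given in the sources used here. Depth and threshold set how many narrow peaks a list holds, and thereby every count.

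Peaks of the 4 lists sharing at least 1 bp were merged into sites on every sequence of the lists, and a site was lacking in a list with no peak in it. Windows, width quartiles and ranks of chromosomes used chromosomes 1 to 22 and X alone. Shares are over all peaks of a list. For peaks at gene ends, or away from them, shares are over all peaks of that kind in the list. The interval of a ratio of shares is a 95% normal interval on the log scale from the peak counts. Windows of 5 Mb (by peak midpoint) used a pseudocount of 0.5 and a mean of at least 20 peaks, and a ratio under 0.8 was called low. The arm boundary, 93 Mb, was set inside a stretch without peaks. Gene spans and promoters came from RefSeq tables (GRCh38.p14); exons and UTRs were not used here. The site counting was checked on simulated data. Python 3.11.15, numpy 2.4.6, pandas 2.3.3, scipy 1.17.1 and matplotlib 3.10.9 were used.

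Named were the 20 lacking sites over 1 kb from an IGF2BP3 knockout peak with the largest smallest width over the 3 lists. All genes lacking a gene-end peak in the IGF2BP3 knockout list alone (30 at most) were named. So were listed genes that differed between lists with a few that did not, the 5 lowest and 3 highest windows, and the 5 genes with most lacking sites (ties at 3). The last were the 5 widest sites held by all 4 lists (by smallest width) or by the IGF2BP3 knockout list alone. DIS3L2, SLC16A14, COLEC11, ASXL2, SLC4A5, the widest lacking sites by span and the promoters were named after their values were seen. The members and gene lists were chosen with earlier results of these data known. Alternatives covered peak width, merging, overlap, gene ends, window size and arm boundary.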

Additional observations from a re-analysis of the deposited data

Results flagged for a closer look

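The knockouts lay on opposite sides of control in the share of peaks on chromosome 2. Relative to the control share it was 1.06 in the IGF2BP1 knockout list, 1.09 in the IGF2BP2 knockout list and 0.778 in the IGF2BP3 knockout list. On 2q the values were 1.11, 1.14 and 0.733 in the same order. All 3 are set against the same control list, each is 1 list, and the difference between them was not tested.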

How the results depend on the processing

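No paired analysis was possible because each group is 1 peak list with no value per library, and for the same reason no library could be left out. Of 55 alternative values for the main results, 39 kept their direction and size. With peaks at gene ends alone, in the total too, the IGF2BP3 knockout share relative to control was 0.938 on the chromosome, 0.953 on 2p and 0.928 on 2q. Of 26 windows 1 was then low. With peaks away from gene ends alone, in the total too, the share was 0.690 of control on the chromosome and 0.631 on 2q. With the widest peaks of each list, as many as the shortest list holds, 320 of 1931 sites were lacking (16.6%), the IGF2BP3 knockout median width was 1.06 of control in place of 0.973, and the median width change was -0.061 on the log2 scale. With peaks of at least 500 bp these were 1.01 and -0.052, so the sign of the difference in median width depends on which narrow peaks are kept. The IGF2BP2 knockout median width turned from 0.857 of control to 1.08 with the widest peaks. Low windows numbered 49 of 85 at 2 Mb, 16 of 25 at 10 Mb and 7 of 49 at a fold of 1.5. Counting a peak anywhere in the gene or within 1 kb of it, 30 of 1039 genes lacked one in the IGF2BP3 knockout list alone; with overlap of a RefSeq promoter, an alternative chosen after seeing the data, 13 of 774 did. The cause of these changes was not tested beyond the construction of each alternative. The unknown depth of each list limits every count of narrow peaks.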

Other observations

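Chromosome 2 also held 706 sites found in the IGF2BP1 and IGF2BP2 knockout lists alone, 12.5% of the 5666 such sites in the genome, with 181 on 2p and 525 on 2q. Of these, 64 (9.07%) lay at gene ends and 307 (43.5%) inside coding genes away from the ends. Another 24 sites were shared by the IGF2BP1 and IGF2BP3 knockout lists alone (0.448% of the chromosome 2 sites, beside 1.33% of all sites), and 96 by the IGF2BP2 and IGF2BP3 knockout lists alone (1.79%, beside 3.50%). For the sites of the IGF2BP1 and IGF2BP2 knockout lists these shares were 13.2% and 7.91%.

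The 5 widest sites found in the IGF2BP3 knockout list alone were outside coding genes. The first lay in the non-coding gene DIRC3 and was 1289 bp wide, and the second lay in LINC01876 and was 1132 bp wide. LINC01876 also holds the second of the lacking sites as ranked by smallest width. The others were a site of 1112 bp 557.0 kb from ZNF804A, one of 1044 bp in MIR3681HG and one of 958 bp 75.3 kb from TANC1.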
